A study of Mus musculus with 4 samples.

Results

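Natural killer cells were examined in 4 mouse single-cell RNA-seq libraries, of which each came from 1 treatment. They were chosen by their transcripts: a cell needed 500 or more detected genes and at most 10% mitochondrial UMIs (unique molecular identifiers, each counting 1 captured mRNA molecule), at least 2 UMIs of Ncr1 and Klrb1c together, no UMI of Cd3e, Cd3d, Cd3g or Cd79a, and at most 2 UMIs of Lyz2. Of 35372 cells that passed the gene and mitochondrial limits, 921 met the rule, or 2.60%. The treatments carry the labels 2DG_aPDL1, 2DG, aPDL1 and ctrl, and the labelled tissue is lymph node, although 9382 of the 35372 cells fell in a monocyte or macrophage gate and 2578 in a neutrophil gate, so it was not settled of which tissue the shares below speak. 2DG is the common short name of a glucose analogue that blocks glycolysis and interferes with N-glycan synthesis, aPDL1 that of an antibody against the checkpoint ligand PD-L1, and the series title names ovarian tumours. The labels used here give no dose, time, age, strain or number of animals for any of the 4 libraries, and the design text speaks of young and aged mice without assigning them.

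Natural killer (NK) cells are innate lymphocytes that kill infected or transformed cells without a rearranged antigen receptor. They read the balance between activating receptors and inhibitory receptors for MHC class I, which in mice are mainly the Ly49 lectins encoded by the Klra genes, and they kill by releasing perforin (Prf1) and granzymes. As mouse NK cells mature they gain Itgam and Klrg1 and lose Il7r, Tcf7 and Cd27, while the related group 1 innate lymphoid cells of tissues carry Itga1 and Cxcr6.

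The promoters of 3 genes on which the results turn are given here: Ncr1, the activating receptor NKp46 used to choose the cells, and Klra4 and Klra8. These Ly49 receptor genes were often found in the same NK cell. They were almost absent from CD8 and gamma-delta T cells, which were gated without Ncr1 or Klrb1c. Each sequence runs from 250 bases before to 50 bases after a transcript start, 5′ to 3′ on the gene's strand, from RefSeq on GRCm38.p6. Capitals mark matches to the core TGTGGT, bound by RUNX factors, on either strand.
Ncr1, chr7:4337465-4337764, plus strand: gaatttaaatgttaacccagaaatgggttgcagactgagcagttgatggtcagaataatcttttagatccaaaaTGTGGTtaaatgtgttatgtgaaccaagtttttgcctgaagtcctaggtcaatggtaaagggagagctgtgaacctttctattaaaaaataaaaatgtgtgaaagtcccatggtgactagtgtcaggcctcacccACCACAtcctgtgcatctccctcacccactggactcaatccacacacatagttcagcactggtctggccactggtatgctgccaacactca
Klra4, chr6:130067222-130067521, minus strand: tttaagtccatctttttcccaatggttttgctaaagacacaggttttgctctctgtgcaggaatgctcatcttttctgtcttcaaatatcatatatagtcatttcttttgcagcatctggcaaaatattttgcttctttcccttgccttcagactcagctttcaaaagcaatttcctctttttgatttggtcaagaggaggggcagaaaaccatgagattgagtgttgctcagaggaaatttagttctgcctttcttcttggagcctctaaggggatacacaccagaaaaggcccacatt
Klra8, chr6:130129786-130130085, minus strand: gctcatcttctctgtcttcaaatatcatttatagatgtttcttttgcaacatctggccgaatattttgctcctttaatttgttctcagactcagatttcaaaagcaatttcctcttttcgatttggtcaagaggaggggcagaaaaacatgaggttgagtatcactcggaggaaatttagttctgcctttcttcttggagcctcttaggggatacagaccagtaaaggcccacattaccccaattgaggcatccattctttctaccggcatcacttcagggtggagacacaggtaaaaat
The Ncr1 window held 2 matches and the 2 Klra windows held none, while 16.8% of 32851 promoter windows of 300 bases held at least 1. The T-box site AGGTGTGA was in none of the 3 windows and in 1.28% of all of them. The Klra4 and Klra8 windows shared 70% of their 300 bases in an alignment. A match in these letters is a description of the sequence and shows no binding.

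The 4 libraries held 9948 (2DG_aPDL1), 8701 (2DG), 9764 (aPDL1) and 9655 (ctrl) barcodes and between 61859753 and 73885214 UMIs. Pairs of libraries shared 22 to 30 barcodes, and no shared barcode was an NK cell. With 1 library per treatment, treatment and library cannot be told apart, so differences between treatments have no replicate check and no test: levels between libraries are given with exact Poisson intervals and shares with exact Clopper-Pearson intervals, both at 95% and both covering counting error only. The ctrl library stood apart in its make-up, with 2094 cells in the neutrophil gate, against 139, 184 and 161 in 2DG_aPDL1, 2DG and aPDL1.

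The NK cells numbered 384 in 2DG_aPDL1, 242 in 2DG, 274 in aPDL1 and 21 in ctrl. They made up 4.13% (3.74 to 4.56) of the 9294 kept cells in 2DG_aPDL1, 3.05% (2.68 to 3.45) of 7943 in 2DG, 3.03% (2.69 to 3.4) of 9044 in aPDL1 and 0.231% (0.143 to 0.353) of 9091 in ctrl. The ctrl share was the lowest and its interval lay apart from the other 3, the 2DG_aPDL1 share was the highest, and the intervals of 2DG and aPDL1 overlapped. Outside the neutrophil gate the shares were 4.19%, 3.12%, 3.08% and 0.30% in the same libraries, so the order was the same with neutrophils left out. With every cell thinned to 2000 UMIs before the rule was applied, they were 2.96%, 2.06%, 2.23% and 0.162%. CD8 T cells, gated on at least 2 Cd3 UMIs and at least 1 of Cd8a or Cd8b1 with no Cd4, Ncr1 or Klrb1c, numbered 1710, 1383, 1644 and 129. Per 100 CD8 T cells there were 22.5, 17.5, 16.7 and 16.3 NK cells in 2DG_aPDL1, 2DG, aPDL1 and ctrl. Of the cells in the NK, CD8 T, CD4 T, gamma-delta T and B gates together, NK cells were 12.4% (11.3 to 13.6) in 2DG_aPDL1, 9.14% (8.07 to 10.3) in 2DG, 10.1% (8.96 to 11.3) in aPDL1 and 5.06% (3.16 to 7.63) in ctrl, whose interval lay below the other 3. NK cells were thus lower in ctrl among gated lymphocytes, while their number per CD8 T cell was close to that of 2DG and aPDL1.

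**Figure D1:**
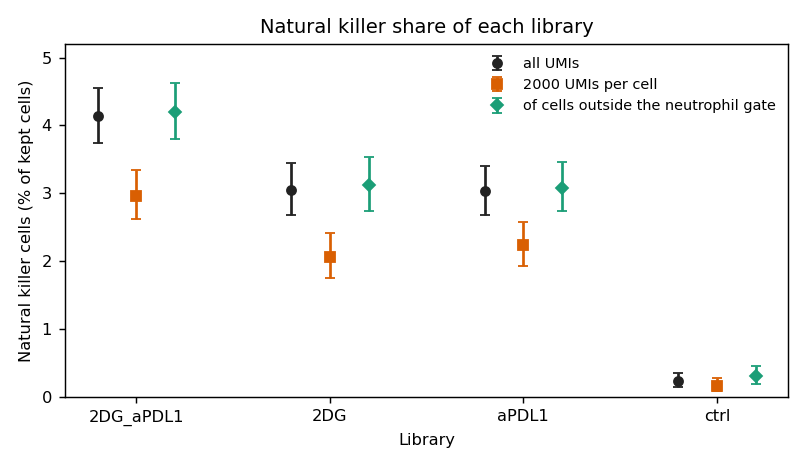
NK cells as a percentage of kept cells (y axis) in the 2DG_aPDL1, 2DG, aPDL1 and ctrl libraries, read at all UMIs (circles), with each cell thinned to 2000 UMIs (squares) and as a share of cells outside the neutrophil gate (diamonds), with 95% exact intervals as bars. The ctrl library sits at 0.231% at all UMIs, below the 3.03% to 4.13% of the other libraries, and is lowest under each reading.

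The label was checked against its markers. Ncr1, which with Klrb1c chose the cells, stood at 329, 324, 294 and 251 CPM (UMIs scaled to a common total, here over the summed NK cells) in 2DG_aPDL1, 2DG, aPDL1 and ctrl, and Klrb1c (NK1.1) at 786, 779, 845 and 634 CPM. Gzma, a granzyme that the rule did not use, stood at 11087, 11049, 10825 and 8392 CPM in NK cells and at 234, 180, 276 and 216 CPM in CD8 T cells of the same libraries. A Gzma UMI was found in 91.9%, 94.2%, 93.4% and 90.5% of NK cells, against 2.31%, 4.42%, 3.38% and 0% of B cells, in which the gene should be silent. With every cell thinned to 2000 UMIs the NK shares were 91.1%, 93.4%, 93.9% and 85% and the B cell shares 0.234%, 2.68%, 1.49% and 0%. Median depth was 4812.5, 5628.5, 4666 and 6050 UMIs in NK cells and 4987, 5526, 4871 and 5466 in B cells. Perforin (Prf1) stood at 1792, 1880, 2137 and 1408 CPM in NK cells, against 481, 367, 588 and 332 CPM in CD8 T cells. Gzma and Prf1, which the rule did not use, were therefore higher in NK cells than in CD8 T cells of each library. At summed CPM, fewer cells with a transcript and less of it per cell cannot be told apart.

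Markers of other cells were present at varying levels. Trac, the T cell receptor alpha constant gene, had a UMI in 5.99%, 4.13%, 5.47% and 4.76% of NK cells in 2DG_aPDL1, 2DG, aPDL1 and ctrl, against 90.6%, 85.5%, 85.3% and 79.8% of CD8 T cells. Trbc1, which NK cells are known to transcribe without rearrangement, stood at 341, 312, 305 and 230 CPM. Its neighbour Trbc2 had a UMI in 33.1%, 32.2%, 31.8% and 33.3% of NK cells, against 93.5%, 94.5%, 92.6% and 90.7% of CD8 T cells and 1.85%, 1.77%, 1.93% and 0% of B cells, and at 2000 UMIs per cell in 19.4%, 18.7%, 20.2% and 15% of NK cells. Markers of group 2 and 3 innate lymphoid cells summed to 99.6, 80.8, 78.6 and 118 CPM, led by Gata3 in each library. Among them Il22 and Il17a, cytokines of such cells, had no UMI in NK cells of any library. Summed markers of monocytes and macrophages came to 663, 589, 739 and 1004 CPM, led by Ccr2 in 2DG_aPDL1, by Ly6c2 in 2DG and aPDL1, both of which NK cells also express, and by Spp1 in ctrl. Those of dendritic cells came to 675, 547, 408 and 105 CPM, led by Cd74 in 2DG_aPDL1, 2DG and aPDL1 and by Itgax in ctrl, with Flt3 at 0 in 2DG, aPDL1 and ctrl. Those of neutrophils came to 33.7, 19.9, 92.1 and 69.7 CPM. The part of these in the results below was not tested.

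Cells just inside and just outside the limit on Ncr1 and Klrb1c differed in Gzma. With exactly 2 UMIs of both genes together, 51 cells of 2DG_aPDL1, 22 of 2DG, 36 of aPDL1 and 3 of ctrl summed to 8195, 5521, 7297 and 982 CPM of Gzma. With 1 UMI, and so left out, 42, 41, 36 and 12 cells summed to 6794, 4775, 3161 and 1771 CPM. Cells with 4 or more UMIs reached 12267, 12331, 11997 and 8990 CPM. The cells left out therefore still held Gzma, and their median depth was 3602, 3605, 3456.5 and 2975 UMIs, below that of the NK cells.

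Against CD8 T cells of the same libraries, NK cells held more of several Ly49 receptors, of Gzma, Gzmb and Gzmc, of the adaptors Tyrobp and Fcer1g and of the integrin Itga2, and less of Pdcd1, Lag3, Havcr2 and of most cell cycle and glycolysis genes. CD8 T cells with Ncr1 or Klrb1c were left out by the gate. How far this set the differences, those of the Ly49 and Klrb1 genes among them, was not tested. Counts summed per library and cell type were compared with edgeR's quasi-likelihood test, with the library as a block and Benjamini-Hochberg adjusted p-values over 14206 genes, leaving the genes that define either gate out of what is named. At an adjusted p under 0.05, 14.5% of tested genes were higher in NK cells and 17.5% were lower, and the counts of list members below are read against those shares.

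Of 20 cytotoxic effector genes, 8 rose in NK cells and 7 fell. Gzma rose by 5.58 ± 0.11 on the log2 scale (SE, 4 libraries, edgeR adjusted p = 5.37e-33), and was higher in NK cells in 4 of 4 libraries. Gzmb stood at 3285, 2415, 2298 and 2851 CPM in NK cells of 2DG_aPDL1, 2DG, aPDL1 and ctrl, against 705, 447, 520 and 489 CPM in CD8 T cells, a log2 fold change of 2.37 ± 0.09. Its groups did not overlap, and neither did those of Prf1, whose log2 fold change was 2.09 ± 0.095 and whose product forms the pore. Gzmc (3.43), the granzyme inhibitor Serpinb9 (3.34) and Serpinb6b (2.88) rose too, while Gzmk (-3.30) and the TRAIL gene Tnfsf10 (-2.58) fell. Gzmf, one of a cluster of closely related granzymes whose reads may be split between genes, was at 0 to 0.749 CPM in NK cells and 0 to 35.8 CPM in CD8 T cells (log2 fold change -5.68). Nkg7, a granule protein of both cell types, had 1884, 1807, 1926 and 1498 CPM in NK cells, against 2133, 1680, 1875 and 1352 CPM in CD8 T cells, and did not pass the test (0.07 ± 0.085, edgeR adjusted p = 0.608).

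Among activating receptors and adaptors, 14 of 23 tested genes rose in NK cells and 8 fell. Tyrobp, the DAP12 adaptor, had 1153, 1105, 1132 and 704 CPM in NK cells of 2DG_aPDL1, 2DG, aPDL1 and ctrl and 33.7, 26.6, 39.5 and 95.6 CPM in CD8 T cells (log2 fold change 4.80 ± 0.19). The groups lay apart in all 4 libraries, as did those of Fcer1g (4.6 ± 0.14), which couples Fc receptors and NKp46 to signalling. Sh2d1b1, a SLAM family adaptor (7.82), Klrb1f (4.63), Cd244a (2.51) and Klrk1, which encodes NKG2D (1.68), rose. Icos (-2.55), Cd27 (-2.33), Cd160 (-1.94) and Cd226, which encodes DNAM-1 (-1.65), fell.

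Further receptors split into the Ly49 and Klrb1 lectins on one side and T cell checkpoints on the other. Of 19 genes listed as inhibitory receptors, 10 rose and 7 fell. Not all Ly49 lectins inhibit: Klra4 and Klra8 encode activating receptors. Klra8 had 421, 287, 313 and 335 CPM in NK cells of 2DG_aPDL1, 2DG, aPDL1 and ctrl, against 0.343, 0.610, 0.260 and 0 CPM in CD8 T cells (log2 fold change 9.77 ± 0.20, edgeR adjusted p = 1.24e-32). Klra4 (9.48), Klra9 (7.16), Klra7 (5.84), Klra1 (5.64), Klrb1b (5.89) and the mature effector marker Klrg1 (3.06) also rose. Pdcd1, which encodes PD-1, the receptor of PD-L1, had 1.95, 4.80, 1.5 and 0 CPM in NK cells, against 243, 184, 264 and 140 CPM in CD8 T cells (-6.37 ± 0.23, edgeR adjusted p = 1.44e-24). Every NK value was below every CD8 T value, and in ctrl the floor of 3 UMIs lay at 20.9 CPM. Havcr2 (-4.30), Lag3 (-4.08), Ctla4 (-2.23), Cd96 (-1.56) and Tigit (-0.60, a call lost without aPDL1) fell as well, so the checkpoint receptors were lower in NK cells as far as the list holds them.

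Transcription factors rose in 14 of 25 tested cases and fell in 7. Irf8 had 1476, 1518, 1705 and 1178 CPM in NK cells of 2DG_aPDL1, 2DG, aPDL1 and ctrl, against 138, 121, 174 and 108 CPM in CD8 T cells (log2 fold change 3.50 ± 0.10). Klf2, which maintains recirculation (2.72), and Bach2 (1.66) rose by more than the T-box factors: Eomes rose by 0.76 ± 0.13 and Tbx21, which encodes T-bet, by 0.74 ± 0.11. Zeb2, a factor of terminal maturation, rose by 0.96 ± 0.12. Tox2 (-5.63), Rora (-2.27), Ikzf2 (-1.93) and Tox (-1.6) fell. Eomes was an exception among libraries: it had 179, 144, 170 and 258 CPM in NK cells and 87.4, 149, 82.7 and 141 CPM in CD8 T cells, and was lower in NK cells in 2DG.

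The cytokine and trafficking genes also differed. Tgfb1 (1.54), the dendritic cell attractant Xcl1 (0.91, a call lost without 2DG_aPDL1) and Ccl4 (0.57) rose in NK cells, and Csf1 (-4.31), Ltb (-2.42), Tnf (-2.08) and Ifng (-0.85) fell. In all, 6 of 16 tested cytokines and chemokines rose and 5 fell. Of 24 cytokine receptors and signalling genes 9 rose and 6 fell: Il12rb2, a chain of the interleukin-12 receptor, rose by 3.68 ± 0.14, Il18rap by 2.11 and Il2rb, which serves interleukins 2 and 15, by 1.32, while Il7r (-2.37) and Il21r (-1.93) fell. Of 25 trafficking and adhesion genes 10 rose and 6 fell. Itga2, the NK integrin DX5, had 633, 490, 615 and 558 CPM in NK cells of 2DG_aPDL1, 2DG, aPDL1 and ctrl and 12.1, 19.9, 9.54 and 22.4 CPM in CD8 T cells. S1pr5, which guides NK cells out of tissue (5.12), and Itgam (3.86) rose, and Cxcr6 (-4.66), Ccr7 (-3.63) and Itgae (-3.14) fell. The 12 genes of mature NK cells rose in 9 cases and fell in 0, with a median log2 fold change of 2.89 against -0.10 over all tested genes. Of 12 genes of immature NK cells 2 rose and 6 fell, with a median of -0.42. Of 15 residence genes, 4 rose and 8 fell.

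Metabolic and proliferation genes were lower in NK cells than in CD8 T cells. None of 22 glycolysis genes rose and 14 fell, with a median log2 fold change of -0.61: Gapdh had 298, 290, 249 and 314 CPM in NK cells of 2DG_aPDL1, 2DG, aPDL1 and ctrl and 755, 757, 838 and 842 CPM in CD8 T cells. The hexokinase Hk2 (-1.20), Pgk1 (-1.11) and the lactate carrier Slc16a1 (-2.38) fell. Of 51 oxidative phosphorylation genes 1 rose and 34 fell, but 14 fell without aPDL1 and 16 without 2DG_aPDL1. None of 40 cell cycle genes rose and 37 fell, with a median of -1.59. Of 49 genes of N-glycan synthesis and transfer 7 rose (4 without 2DG_aPDL1) and 2 fell, among them the branching enzymes Mgat5 (1.64 ± 0.11) and Mgat4a (1.55 ± 0.13), which rose, and Alg9 (-1.03) and Uap1 (-0.88), which fell. Immediate early genes rose in 17 of 23 cases and fell in 2 (Atf3 2.02, Ier2 1.77, Zfp36 1.71, Nr4a1 1.6), though without the library block 8 rose and none fell. Type I interferon response genes rose in 2 of 36 cases and fell in 24, or in 15 without 2DG_aPDL1. Among genes outside the lists, the guidance molecule Sema6a had the highest log2 fold change (9.99 ± 0.25), followed by Clnk, an adaptor of immune receptors (8.55), Eya1 (7.92), Sorcs2 (7.58), Atp1b1 (6.58) and Aoah (6.52), and the T cell genes Themis (-6.70), Cd6 (-6.28) and Cd5 (-5.18) were among the lowest. The 10 genes with the highest and the 10 with the lowest log2 fold changes among those at a mean of at least 50 CPM passed under each of the 13 alternatives tried. Below that level Gzmg had a lower value (-8.31), and its call was lost with DESeq2 and without the block.

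**Figure D2:**
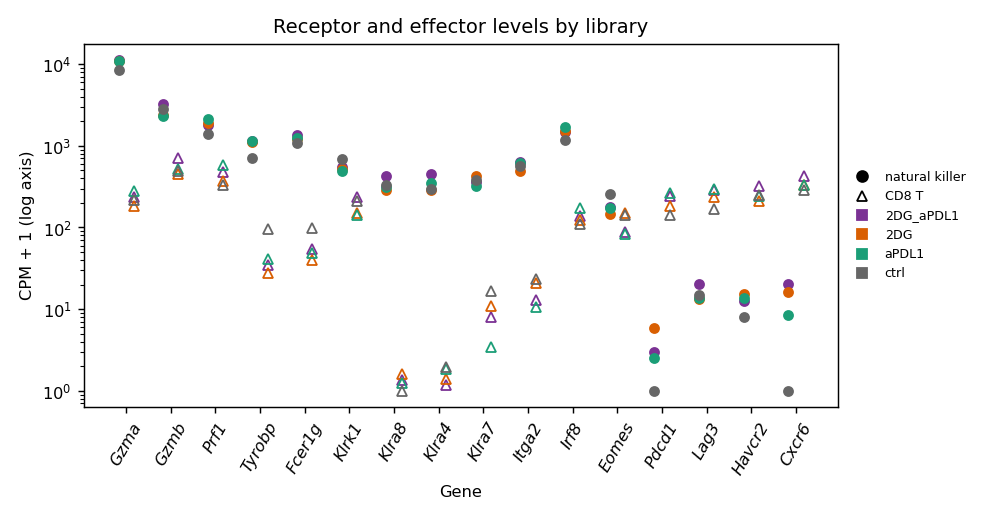
Levels of 16 genes in summed NK cells (filled circles) and CD8 T cells (open triangles) of each library, as CPM with 1 added on a log axis, with 1 colour per library. Gzma, Tyrobp, Klra8, Klra4 and Itga2 lie higher in NK cells in all 4 libraries, Pdcd1, Lag3, Havcr2 and Cxcr6 lie lower, and the Eomes points of both cell types overlap.

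Gamma-delta T cells gave a second comparison with innate-like lymphocytes. They were gated on at least 2 Cd3 UMIs and at least 2 UMIs of Trdc, with no Cd4, Cd8a, Cd8b1, Ncr1 or Klrb1c. Gamma-delta T cells with Ncr1 or Klrb1c were thus left out beforehand. How far this choice set the differences below was not tested. They numbered 19 in 2DG_aPDL1, 26 in 2DG and 10 in ctrl, and the 6 in aPDL1 were too few to use. At an edgeR adjusted p under 0.05, 3.47% of 9463 tested genes were higher in NK cells and 2.62% were lower. Of 15 tested cytotoxic effectors 9 rose in NK cells and none fell. Gzma had 11087, 11049 and 8392 CPM in NK cells of 2DG_aPDL1, 2DG and ctrl, against 184, 412 and 0 CPM in gamma-delta T cells (log2 fold change 5.76 ± 0.22), and Prf1 rose by 5.07 ± 0.31. Irf8 had 1476, 1518 and 1178 CPM in NK cells and 30.6, 7.35 and 0 CPM in gamma-delta T cells. Klra4 and Klra8, at 283 to 456 CPM in NK cells, had no UMI in the gamma-delta T cells of any of the 3 libraries, so no fold is given (edgeR adjusted p = 1.19e-23 and 1.01e-23). Il23r and Il17a, the interleukin-23 receptor and interleukin-17A of type 17 cells, had no UMI in NK cells, where 3 UMIs correspond to 1.46, 2.06 and 20.9 CPM, against 163, 331 and 413 CPM of Il23r in gamma-delta T cells. Il7r had 42.5, 15.8 and 0 CPM in NK cells and 1215, 699 and 919 CPM in gamma-delta T cells (-5.20 ± 0.31). Eomes rose by 2.47 ± 0.45. The metabolic and cell cycle lists were not lower here. Of 19 tested glycolysis genes 2 rose and 1 fell (median 0.43), and of 51 oxidative phosphorylation genes 1 rose and 0 fell (median 0.37). None of 30 cell cycle genes passed (median 0.50), against a median of 0.15 over all tested genes. Of 23 immediate early genes 1 rose and 3 fell. The counts of genes that passed rest on few cells: 328 rose and 248 fell, but without 2DG 165 and 121 did, and without 2DG_aPDL1 164 and 142.

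The Ly49 receptors were then followed from cell to cell. The 8 genes lie together on chromosome 6, between positions 129898988 and 130386874 of GRCm38.p6, within a stretch from 128609227 that holds the 16 Klr genes of the lists. Ly49 genes resemble each other, so their counts could be mixed: in the last 500 bases of their transcripts, where this chemistry reads, 5.15% of the 90-base stretches of Klra3 and 4.74% of those of Klra9 occur in another Ly49 gene, and none of those of the other 6. Promoter windows of Klra3 and Klra9 shared 90.3% of their bases and those of Klra5 and Klra6 82%. The Ly49 cluster also differs between mouse strains, and the strain is not given.

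Klra4 had 456 CPM (428 to 487) in 2DG_aPDL1, 283 (256 to 312) in 2DG, 345 (314 to 378) in aPDL1 and 293 (211 to 396) in ctrl. Klra8 had 421 (394 to 450), 287 (260 to 316), 313 (284 to 344) and 335 (247 to 444) CPM. Both were highest in 2DG_aPDL1, with intervals apart from those of 2DG and aPDL1 and, for Klra8, overlapping that of ctrl. Klra7 had 362, 423, 319 and 383 CPM and Klra9 had 291, 297, 315 and 244 CPM. Neither followed that order. Klra3 had 83.0, 82.9, 112 and 146 CPM, Klra1 73.2, 71.2, 65.2 and 0 CPM, Klra5 40.5, 41.8, 49.4 and 0 CPM, and Klra6 16.1, 6.85, 12.7 and 0 CPM. The 3 genes at 0 in ctrl had no UMI in its 21 cells, where a count of 0 allows a level of up to 20.9 CPM (3 UMIs).

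With cells thinned to 2000 UMIs, which left 906 of the 921, a mean of 1.78, 1.48, 1.65 and 1.45 Ly49 genes were detected per NK cell in 2DG_aPDL1, 2DG, aPDL1 and ctrl. Besides the Ly49 genes named above, these counts per cell took in Klra10 and Klra17 where the files hold them. The levels of Klra10 and Klra17 are not given here. No Ly49 UMI was found in 19.9%, 23.7%, 19.0% and 20% of cells, and 4 or more genes were found in 11.0%, 2.90%, 9.13% and 0%. Pairs of genes were not found together equally often. Klra4 and Klra8 were both found in 129 cells: Klra8 was seen in 46.2% of cells with Klra4 and in 24.4% of cells without it, and the pair was 1.49 times as frequent as the product of both shares. The ratio was 1.65 for Klra1 and Klra4, 1.35 for Klra7 and Klra8, 1.01 for Klra3 and Klra9 and 0.477 for Klra1 and Klra3. These ratios describe 906 cells of 4 libraries that differ in depth before thinning and in the level of these genes.

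**Figure D3:**
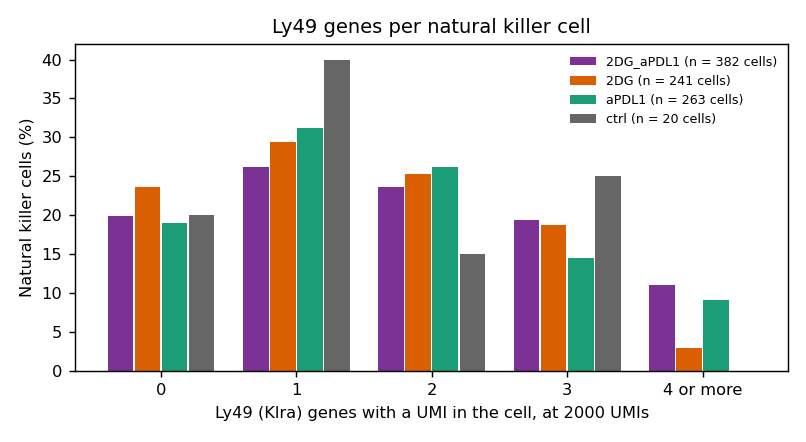
Percentage of NK cells (y axis) with 0, 1, 2, 3 or 4 or more Ly49 genes detected at 2000 UMIs per cell, as bars for 2DG_aPDL1, 2DG, aPDL1 and ctrl. Cells with no Ly49 gene made up 19.0% to 23.7% of each library, and no ctrl cell of 20 had 4 or more. The counts take in Klra10 and Klra17 where the files hold them.

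NK cells were divided by genes of terminal maturation. At 2000 UMIs per cell, at least 1 UMI of Itgam, S1pr5, Klrg1 or Cx3cr1 was found in 52.1% (47.0 to 57.2) of 382 cells in 2DG_aPDL1, 54.8% (48.3 to 61.2) of 241 in 2DG, 60.5% (54.3 to 66.4) of 263 in aPDL1 and 45% (23.1 to 68.5) of 20 in ctrl. The 4 intervals overlapped at this depth. At 1000 UMIs the shares were 32.4%, 37.6%, 39.9% and 5%, so the shares depend on the depth at which they are read. The ctrl interval at 1000 UMIs (0.127 to 24.9, from 1 cell of 20) lay below those of 2DG_aPDL1 (27.7 to 37.3), 2DG (31.5 to 44.0) and aPDL1 (34.1 to 46.0). Cells with and without them were then compared within 2DG_aPDL1, 2DG and aPDL1 by edgeR's quasi-likelihood test with the library as a block. The 9 and 11 cells of ctrl were not used. Of 9794 tested genes, 1.51% were higher in the cells with these genes and 1.98% were lower.

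Cells with maturation genes held more of the killing machinery. Gzma had 13735, 12854 and 12497 CPM in cells with them in 2DG_aPDL1, 2DG and aPDL1, against 8714, 9063 and 8552 CPM in cells without (log2 fold change 0.59 ± 0.05, edgeR adjusted p = 5.79e-06), higher in 3 of 3 libraries. Prf1 had 2165, 2221 and 2548 CPM against 1458, 1501 and 1576 CPM (0.63 ± 0.061). Neither gene's groups overlapped. Gzmb rose by 0.52 ± 0.073, and 6 of 15 tested cytotoxic genes rose (3 without 2DG) while 1, Tnfsf10 (-1.38), fell. Zeb2 had 734, 1173 and 1404 CPM in cells with maturation genes and 490, 677 and 794 CPM in cells without (0.75 ± 0.074), so it was higher within each library although the 2 groups overlap across them. Ly6c2 rose by 1.25 ± 0.12, the chymase Cma1 by 1.24 ± 0.19 and Klf2 by 0.52 ± 0.093. Of the 8 other maturation genes that could be tested, 7 rose and none fell.

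Of 13 tested cytokines and chemokines, 5 rose in cells with maturation genes and 3 fell. Ccl5 had 10763, 10439 and 9619 CPM in cells with maturation genes in 2DG_aPDL1, 2DG and aPDL1, against 5778, 5037 and 5979 CPM in cells without (log2 fold change 0.90 ± 0.063), Ccl4 rose by 0.73 ± 0.079, Ccl3 by 0.74 ± 0.093 and Ccl9 by 1.49 ± 0.18. Ltb, which encodes lymphotoxin beta, had 10.3, 31.2 and 8.94 CPM against 149, 107 and 84.0 CPM (-2.80 ± 0.29), and Xcl1 had 96.0, 28.6 and 48.5 CPM against 285, 190 and 105 CPM (-1.73 ± 0.21). Every value of Ltb with maturation genes was below every value without. Of the Ly49 genes, Klra9 had 389, 383 and 391 CPM against 203, 203 and 204 CPM (0.95 ± 0.10), a difference of nearly equal size in each library, while Klra4 did not pass (0.10 ± 0.095, edgeR adjusted p = 0.747).

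Of 11 tested genes of immature NK cells, none rose in cells with maturation genes and 10 fell, with a median log2 fold change of -1.83 against 0.00 over all tested genes. Tcf7, a factor of early lymphocytes, had 23.7, 13.0 and 19.1 CPM in cells with maturation genes and 86.3, 53.7 and 87.8 CPM in cells without (-1.99 ± 0.23). Il7r (-2.49), Emb (-1.97), Cd7 (-1.24), Ctla2a (-1.20) and Thy1 (-1.13) fell too, and Cd27 did not pass (-1.30 ± 0.35, edgeR adjusted p = 0.052). Rora (-1.61), Ctla4 (-1.51), Inpp4b (-1.99), Ikzf2 (-1.0) and Tox (-0.71) were lower in cells with maturation genes, and Eomes had 181, 120 and 179 CPM against 178, 171 and 161 CPM without passing the test (-0.08 ± 0.14, edgeR adjusted p = 0.894). Of 31 tested cell cycle genes none rose and 5 fell (1 without 2DG and 3 without aPDL1). None of 18 glycolysis genes passed in either direction, and of 46 N-glycan genes 1, Mgat4a, fell. The call counts depended on the 2DG library: 148 genes rose and 194 fell, but without 2DG 31 and 62 did, and without aPDL1 230 and 290 did. The calls named for this division held in each of the 3 fits that left out a library, except those of Tnfsf10, lost without 2DG, and Mgat4a, lost without 2DG and without 2DG_aPDL1. Without the library block the calls of Inpp4b, Ccl5, Klra9, Ly6c2, Cma1, Ltb, Tcf7 and Il7r held and those of Gzma, Prf1, Gzmb, Zeb2 and the rest were lost.

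**Figure D4:**
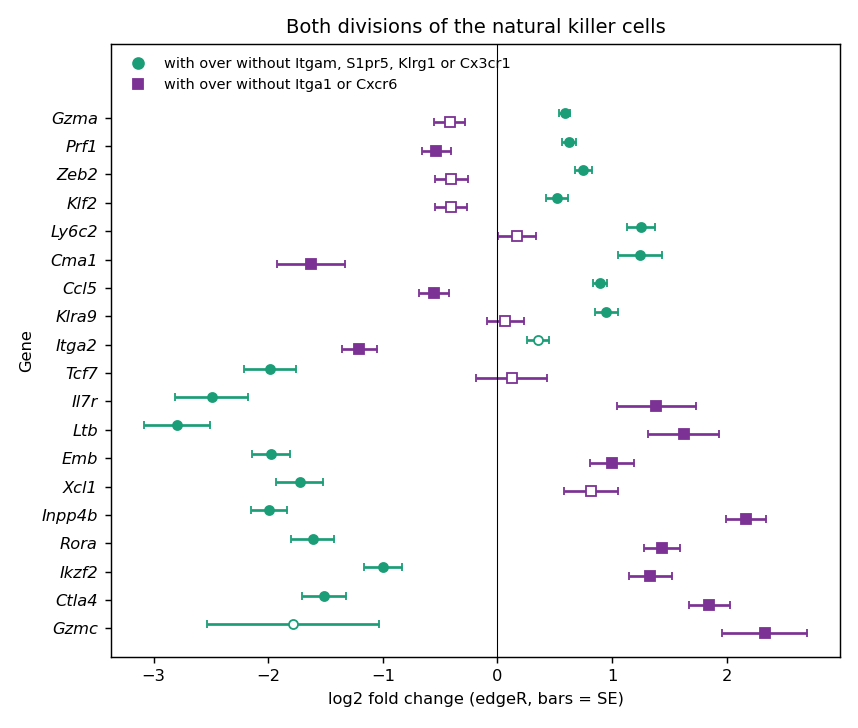
Log2 fold changes, with standard errors as bars, of named genes in NK cells with over without Itgam, S1pr5, Klrg1 or Cx3cr1 (circles) and with over without Itga1 or Cxcr6 (squares), from edgeR over 2DG_aPDL1, 2DG and aPDL1. Filled symbols mark genes with an adjusted p under 0.05; Gzma and Ccl5 lie right of 0 and Ltb, Inpp4b and Ctla4 left of it for the first division, and Inpp4b and Ctla4 right of 0 for the second.

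A second division used Itga1 and Cxcr6, genes of tissue-resident group 1 cells. At 2000 UMIs per cell either gene was found in 15.7% (12.2 to 19.8) of NK cells in 2DG_aPDL1, 21.6% (16.6 to 27.3) in 2DG, 19.4% (14.8 to 24.7) in aPDL1 and 15% (3.21 to 37.9) in ctrl, and the intervals overlapped. CD8 T cells held both genes more often. Cxcr6 was found in 51.1%, 46.0%, 44.9% and 50% of CD8 T cells and in 2.36%, 2.90%, 0.760% and 0% of NK cells. Itga1 was found in 33.0%, 33.1%, 32.2% and 35.8% of CD8 T cells and in 14.4%, 20.3%, 19.0% and 15% of NK cells. The part of any T cells left in the NK gate in this division was not tested. Of the cells with Itga1 or Cxcr6, 36.7%, 55.8%, 47.1% and 33.3% also held a maturation gene, against 55.0%, 54.5%, 63.7% and 47.1% of the cells without. The 2 divisions thus crossed in each library. Of 9794 genes tested over 2DG_aPDL1, 2DG and aPDL1, 0.858% were higher in cells with Itga1 or Cxcr6 and 0.633% were lower.

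Cells with Itga1 or Cxcr6 were richer in genes of residence and poorer in Itga2 and some Ly49 receptors. Inpp4b, a phosphoinositide phosphatase, had 447, 514 and 615 CPM in cells with them in 2DG_aPDL1, 2DG and aPDL1, against 153, 93.5 and 96.6 CPM in cells without (log2 fold change 2.17 ± 0.17, edgeR adjusted p = 1.78e-12). Ctla4 had 525, 250 and 161 CPM against 134, 83.2 and 37.3 CPM (1.85 ± 0.18). Both were higher in 3 of 3 libraries, and the groups of neither gene overlapped. Rora (1.43), Ikzf2 (1.34), Cd226 (1.12), the sialyltransferase St6galnac3 (1.69), Camk4 (1.51) and Sema6d (2.51) rose as well. Gzmc had 441, 294 and 747 CPM against 94.6, 244 and 6.69 CPM (2.33 ± 0.37), but 5 cells held 82.4%, 86.5% and 98.1% of all its NK UMIs in these libraries. The residence list had 7 of 12 tested genes higher (3 without 2DG_aPDL1) and none lower, with a median log2 fold change of 1.29, and the cell cycle list had 4 of 31 higher (2 without 2DG_aPDL1) and none lower, among them Mki67 (1.32 ± 0.24) and Top2a (1.09 ± 0.23).

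Of 22 tested trafficking and adhesion genes 3 fell and 1 rose in cells with Itga1 or Cxcr6, and of 12 genes of mature NK cells 3 fell and none rose. Of 11 tested genes of immature NK cells 4 rose and 0 fell. Itga2 had 264, 267 and 329 CPM in cells with Itga1 or Cxcr6 in 2DG_aPDL1, 2DG and aPDL1, against 706, 547 and 694 CPM in cells without (log2 fold change -1.20 ± 0.15). Its groups did not overlap, and its call and that of Sema6a (-1.61 ± 0.21) held under each of the 8 alternatives tried. Eomes fell by 0.92 ± 0.20 on the log2 scale, and Klra4 (-0.90) and Klra8 (-0.92) fell. Tbx21 did not pass (-0.02 ± 0.15, edgeR adjusted p = 0.998), nor did Gzma (-0.42 ± 0.13, edgeR adjusted p = 0.143). With cells divided at 1000 UMIs the calls of Inpp4b, Rora, Ikzf2, St6galnac3, Sema6d, Gzmc, Mki67 and Top2a were lost, and those of Eomes, Klra4 and Klra8 were lost without 2DG_aPDL1. The counts moved from library to library: 84 genes rose and 62 fell, but without 2DG 121 and 146 did, without 2DG_aPDL1 33 and 17, and without aPDL1 62 and 23.

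Between libraries, genes were compared where at least 20 UMIs were expected in both, and a gene was counted as different at 2-fold or more, with no test. For 2DG over ctrl, 1.83% of 1424 genes were higher and 0.632% lower, and for aPDL1 over ctrl 3.3% of 1456 were higher and 0.687% lower. For 2DG_aPDL1 over aPDL1 the shares were 1.83% higher and 1.09% lower of 6704 genes, and for 2DG_aPDL1 over 2DG 2.18% higher and 0.844% lower of 6869. Comparisons with ctrl rest on 21 cells, in which 5 cells held 50.2% of all Gzma UMIs, and both of them use the same cells. Of 1413 genes compared in both pairs with and without 2DG, 8 were at least 1.5-fold higher and 6 at least 1.5-fold lower in both, and 14 went opposite ways. For aPDL1 the counts were 24, 3 and 16 of 1445. Scaling by TMM factors moved the median log2 ratio of all tested genes to 0.10 for 2DG over ctrl, against -0.06 unscaled, and to 0.11 for aPDL1 over ctrl, against -0.02. Under it 45 genes were past 2-fold higher and 7 lower for 2DG over ctrl, against 26 and 9 unscaled, 67 and 3 for aPDL1 over ctrl, against 48 and 10, and 148 and 50 for 2DG_aPDL1 over aPDL1, against 123 and 73.

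The chemokines Ccl4 and Ccl3 and several immediate early genes were highest in 2DG_aPDL1. Ccl4, an inflammatory chemokine, had 3535 CPM (3454 to 3617) in 2DG_aPDL1, 1669 (1604 to 1737) in 2DG, 2047 (1971 to 2126) in aPDL1 and 648 (523 to 794) in ctrl. No 2 intervals overlapped, and ctrl was lowest. Its log2 ratio was 1.36 for 2DG over ctrl and 0.79 for 2DG_aPDL1 over aPDL1, and 1.65 for aPDL1 over ctrl and 1.08 for 2DG_aPDL1 over 2DG. CD8 T cells of the same libraries had 2086, 1220, 1120 and 792 CPM of Ccl4, so the gene stood highest in 2DG_aPDL1 and lowest in ctrl there too. Ccl3 had 719, 319, 509 and 195 CPM in NK cells and 668, 340, 345 and 270 CPM in CD8 T cells. Junb, an AP-1 subunit, had 2329, 1214, 1501 and 697 CPM in NK cells and 1205, 592, 612 and 609 CPM in CD8 T cells. In both genes 2DG_aPDL1 was again the highest library in both cell types.

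Nr4a3, a nuclear receptor induced by activation, had 412, 166, 234 and 20.9 CPM in NK cells of 2DG_aPDL1, 2DG, aPDL1 and ctrl, the last from 3 UMIs, and its log2 ratio of aPDL1 over ctrl was 3.27 (1.93 to 5.77). Gadd45b had 278, 109, 168 and 34.8 CPM and Egr1 had 193, 82.2, 202 and 55.8 CPM. Of 21 tested immediate early genes all 21 had a log2 ratio above 0 for 2DG_aPDL1 over 2DG, with a median of 0.90 against -0.03 over all tested genes, and 8 were past 2-fold. For aPDL1 over ctrl 13 of 17 were above 0 and 8 past 2-fold, with a median of 0.96 against -0.02 over all. For 2DG over ctrl 9 of 16 were above 0, with a median of 0.04, and for 2DG_aPDL1 over aPDL1 15 of 21, with a median of 0.22. Genes on both sides of 0 were thus found in each comparison but that of 2DG_aPDL1 over 2DG: Fos had a log2 ratio of -1.47 and Dusp2 of 1.59 for 2DG over ctrl.

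Rora was the gene with the highest smaller ratio for 2DG, at 393, 193, 166 and 55.8 CPM in NK cells of 2DG_aPDL1, 2DG, aPDL1 and ctrl. It was found in 23.7%, 23.1%, 17.5% and 23.8% of NK cells, and 5 cells held 35.7%, 53.2%, 52.3% and 100% of its UMIs, so its level rests on few cells. CD8 T cells, where it was more abundant, had 1629, 975, 849 and 663 CPM. Dhx40, an RNA helicase gene, had 515, 208, 188 and 90.6 CPM in NK cells and 446, 170, 183 and 87.8 CPM in CD8 T cells. Sytl3, linked to granule transport, had 1393, 730, 894 and 307 CPM in NK cells. The order of libraries was the same in NK and CD8 T cells for Dhx40 except between 2DG and aPDL1. Cd74, the invariant chain of MHC class II, had 263, 203, 160 and 34.8 CPM in NK cells, of which 5 cells held 68.5%, 72.6%, 66.7% and 100%, against 4970 to 5833 CPM in B cells.

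The heat shock genes Hspa1b and Hsph1 were lowest in 2DG_aPDL1 and highest in ctrl in NK cells. Hspa1b, a stress-induced HSP70, had 23.9, 121, 103 and 348 CPM in NK cells of 2DG_aPDL1, 2DG, aPDL1 and ctrl, and 12.5, 178, 75.6 and 515 CPM in CD8 T cells. Hsph1 had 88.3, 156, 151 and 488 CPM in NK cells and 134, 372, 252 and 561 CPM in CD8 T cells. Both genes were highest in ctrl in each cell type. The log2 ratio of Hspa1b was -1.53 (-1.98 to -1.04) for 2DG over ctrl and -2.09 (-2.60 to -1.62) for 2DG_aPDL1 over aPDL1. The heat shock list as a whole was closer to the other genes. For 2DG over ctrl 7 of 9 tested members were below 0 and 2 past 2-fold lower, with a median of -0.42 (-0.26 under TMM scaling) against -0.06 over all genes, and Hspa8 and Hsp90ab1, both at 0.07, were the 2 above 0. Over the same 9 genes the median was -0.03 for 2DG_aPDL1 over aPDL1. Over all members tested it was -0.04 over 13 genes for 2DG_aPDL1 over aPDL1, -0.38 over 8 for aPDL1 over ctrl and -0.11 over 14 for 2DG_aPDL1 over 2DG. Rap1gap2 had 241, 349, 454 and 669 CPM in the same libraries.

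**Figure D5:**
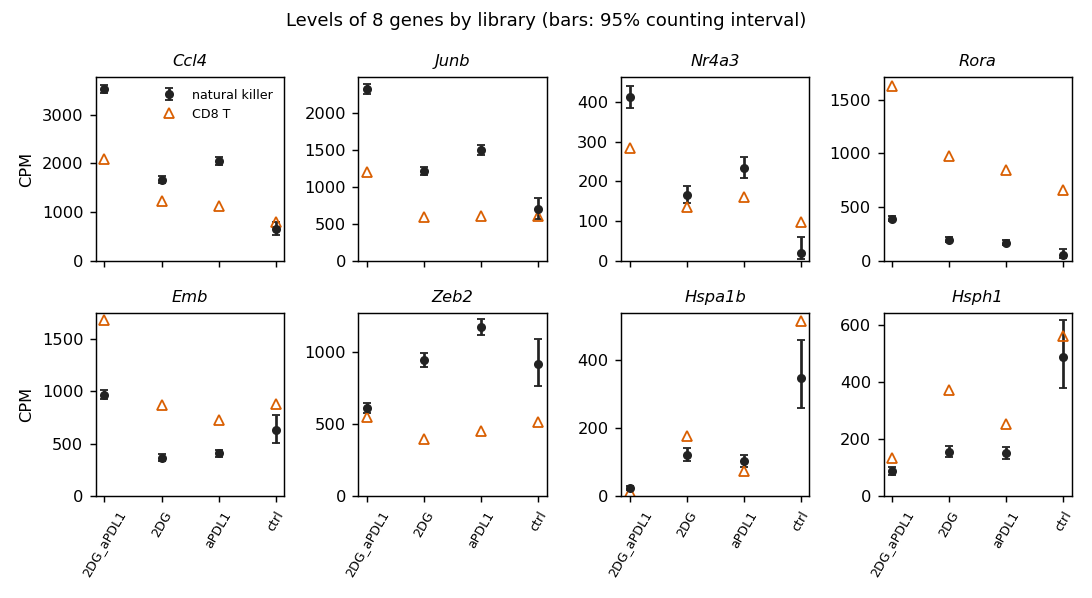
Levels of 8 genes in summed NK cells and CD8 T cells of the 2DG_aPDL1, 2DG, aPDL1 and ctrl libraries, in CPM with 95% counting intervals. Ccl4 is highest in 2DG_aPDL1 (3535 CPM in NK cells) and Hspa1b highest in ctrl (348 CPM in NK cells).

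Genes of immature NK cells were higher in 2DG_aPDL1 than in aPDL1 or 2DG, while the mature list was lower against aPDL1 and near the other genes against 2DG. For 2DG_aPDL1 over aPDL1 the mature list had a median log2 ratio of -0.49, with 10 of 12 genes below 0, and the immature list a median of 0.81, with 10 of 10 tested genes above 0 and 4 past 2-fold, against -0.06 over all tested genes. For 2DG_aPDL1 over 2DG the mature list had a median of -0.13, with 8 of 12 genes below 0 and 1 past 2-fold higher, and the immature list a median of 0.85, with 9 of 10 above 0 and 4 past 2-fold, against -0.03 over all. Over ctrl the mature list was above 0 in 8 of 8 tested genes for aPDL1 (median 0.35) and in 6 of 7 for 2DG (median 0.15). Only 2 immature genes could be tested there, and both were below 0 for aPDL1 (median -0.70) and for 2DG (median -0.79). Emb had 964 CPM (922 to 1008) in 2DG_aPDL1, 365 (335 to 397) in 2DG, 409 (375 to 445) in aPDL1 and 627 (504 to 771) in ctrl. CD8 T cells had 1680, 865, 722 and 874 CPM of Emb, so the gene was highest in 2DG_aPDL1 in both cell types. Xcl1 had 195, 105, 71.1 and 132 CPM in NK cells and 49.0, 99.0, 68.3 and 40 CPM in CD8 T cells, where 2DG_aPDL1 was not the highest. Zeb2 had 612, 942, 1168 and 913 CPM in NK cells, lowest in 2DG_aPDL1, and 546, 396, 451 and 511 CPM in CD8 T cells. The share of cells with a maturation gene, given above, was 52.1% in 2DG_aPDL1 and 60.5% in aPDL1, with overlapping intervals.

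No tested cytotoxic gene was past 2-fold between libraries. Over all tested genes 0.632% to 3.3% were past it per direction, so a count of 0 says little for lists of this length. Over 14 genes the medians were -0.04 for 2DG_aPDL1 over aPDL1 and -0.03 over 2DG. Over 10 genes they were 0.24 and 0.31 for 2DG and aPDL1 over ctrl. Single genes ran from -0.98 to 0.92 for 2DG_aPDL1 over aPDL1 and from -0.73 to 0.50 over 2DG. They ran from -0.33 to 0.49 for 2DG over ctrl and from -0.47 to 0.78 for aPDL1 over ctrl. No tested glycolysis gene was past 2-fold in any of the 4 comparisons. The medians were 0.05 over 6 genes for 2DG over ctrl, -0.11 over 16 for 2DG_aPDL1 over aPDL1, 0.16 over 6 for aPDL1 over ctrl and -0.04 over 16 for 2DG_aPDL1 over 2DG. Single glycolysis genes ran from -0.81 (aPDL1 over ctrl) to 0.55 (2DG over ctrl). N-glycan genes had no member past 2-fold either, with medians of -0.32 over 6 genes, -0.06 over 28, -0.25 over 5 and -0.07 over 30 in the same comparisons. Single N-glycan genes ran from -0.67 (2DG_aPDL1 over 2DG) to 0.99 (aPDL1 over ctrl). Under TMM scaling the cytotoxic medians were 0.02 for 2DG_aPDL1 over aPDL1, 0.00 over 2DG, and 0.40 and 0.44 for 2DG and aPDL1 over ctrl. In the order of comparisons used for glycolysis, the glycolysis medians were then 0.21, -0.05, 0.28 and -0.01 and the N-glycan medians -0.15, 0.00, -0.12 and -0.04. The low counts of ctrl left most of the 49 N-glycan genes and 22 glycolysis genes out of the comparisons with it. Cytosolic ribosomal protein genes were above 0 in 81 of 81 tested cases for 2DG_aPDL1 over aPDL1, with a median of 0.43, and in 77 of 81 for 2DG_aPDL1 over 2DG, with a median of 0.25. Over ctrl they were above 0 in 36 of 79 cases for 2DG, with a median of -0.01 (0.15 under TMM scaling), and in 16 of 79 for aPDL1, with a median of -0.20. Type I interferon response genes had a median of 0.09 over 22 genes for 2DG_aPDL1 over 2DG and of -0.29 over 23 for 2DG_aPDL1 over aPDL1, with 3 past 2-fold lower there, and the largest of these, Rsad2, had all its 74 UMIs of aPDL1 in 5 cells.

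Cycling cells, with a UMI of Mki67 or Top2a at 2000 UMIs, made up 9.69% (6.91 to 13.1) of NK cells in 2DG_aPDL1, 13.3% (9.26 to 18.2) in 2DG, 6.84% (4.11 to 10.6) in aPDL1 and 5% (0.127 to 24.9) in ctrl. All 4 intervals overlapped. In CD8 T cells the shares were 19.0%, 22.2%, 21.3% and 21.7%, and in B cells 5.14%, 2.68%, 7.46% and 1.67%. The NK share was above the B cell share in 2DG_aPDL1, 2DG and ctrl and below it in aPDL1. The B cell shares carry counting error too, and no interval is given for them. Without thinning, a Mki67 UMI was found in 12.2%, 12.8%, 7.30% and 4.76% of NK cells, against 6.48%, 4.42%, 8.21% and 6.56% of B cells.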

How the data were processed

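The deposited files hold UMI counts per gene and barcode, made with Cell Ranger per the file headers. The submitters' processing notes name Cell Ranger 3.1.0 and the build mm10, whereas the matrix headers carry version 7.0.0, and which one made the counts could not be settled. The libraries were made with droplet 3′ chemistry from polyA RNA, per the labels' protocols. No annotation of cells was used, and cells were gated on raw UMIs as described above. The gated cells, the gene lists and the tests were chosen with earlier results of these data known, so none is independent evidence.

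UMIs were summed over the cells of a gate in each library and divided by the sum (CPM). Tests between cell classes used edgeR 4.0.16 in R 4.3.3 (glmQLFTest, TMM factors, library as a block, genes with 20 or more UMIs in all), with DESeq2 1.42.0 as an alternative. Here the pairing is by design, since both sums of a pair come from 1 library. P-values measure the spread between libraries that also differ in treatment. Log2 ratios between libraries had 0.5 added to each UMI count. On simulated counts with 200 changed genes of at least 200 UMIs, the fit recovered 83% of 2-fold and 99% of 4-fold changes for NK against CD8 T cells, 32% and 87% for gamma-delta T cells, 77% and 100% for the Itga1 or Cxcr6 division and 97% and 100% for the maturation division, with 3.19%, 4.03%, 3.80% and 1.99% false calls. All simulated libraries shared the pooled profile and a common dispersion, without differences between libraries. The rates may therefore not hold for the real counts.

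Named genes are the rule and marker genes, members of 23 lists, up to 10 genes per direction that differed at least 1.5-fold the same way in both pairs of a treatment, and in each test the 10 genes per direction with the largest log2 fold change at a mean of at least 50 CPM; a few of these are not reported here. Doublets were kept in the main values and removed with Scrublet (scanpy 1.11.5) as an alternative, which took out 19, 7, 8 and 0 NK cells of 2DG_aPDL1, 2DG, aPDL1 and ctrl. The NK cells summed to 2048979, 1459734, 1335367 and 143476 UMIs, so 1 UMI is 0.488, 0.685, 0.749 and 6.97 CPM. Other alternatives were limits of 1 or 3 on Ncr1 plus Klrb1c, 1000 genes per cell, Trac, Cd8b1 and Cd4 at 0, thinning, no filter on low counts, other size factors, added counts of 5, expected counts of 10 or 40, no block, and leaving out each library. Sequences come from RefSeq tables on GRCm38.p6, and gene positions from the same build, while shared 3′ stretches were counted in GENCODE transcripts.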

Additional observations from a re-analysis of the deposited data

Results flagged for a closer look

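The list of tissue residence and group 1 innate lymphoid genes went opposite ways in the 2 comparisons of aPDL1. Over the 5 genes tested in both, its median log2 ratio was -0.47 for aPDL1 over ctrl and 0.47 for 2DG_aPDL1 over 2DG. The difference itself was not tested, and the ctrl side rests on 21 cells. The 5 genes were Gzmc (-0.47 and -0.73), Inpp4b (0.94 and 0.19), Cd69 (-0.11 and 1.11), Rgs1 (-0.85 and 0.47) and Rgs2 (-0.79 and 0.73), the first value of each pair being aPDL1 over ctrl. All Gzmc UMIs of ctrl were in 5 cells or fewer.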

How the results depend on the processing

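Of 172 alternative values of the main shares and counts, 110 stayed close to the main value and 62 moved. Shares and counts have no sign, so a reversal was not scored for them. The balance of higher and lower genes did turn in places. For Itga1 or Cxcr6 it went from 84 and 62 to 20 and 38 with cells divided at 1000 UMIs. For 2DG over ctrl it went from 26 and 9 to 9 and 21 with 5 added to counts. DESeq2 lowered the counts of higher and lower genes to 136 and 163 against gamma-delta T cells, 19 and 12 for the Itga1 or Cxcr6 division and 68 and 72 for the maturation division, and the lower count against CD8 T cells to 1635. Without a filter on low counts 100 genes were lower in cells with Itga1 or Cxcr6. With cells divided at 1000 UMIs the counts were 20 and 38 for the Itga1 or Cxcr6 division and 71 and 90 for the maturation division. Without the library block they were 9 and 4 and 11 and 23 in these divisions, 1510 and 1672 against CD8 T cells and 274 and 259 against gamma-delta T cells. Leaving out 1 library gave 1461 to 2228 higher and 1648 to 2443 lower genes against CD8 T cells, 164 to 343 and 121 to 268 against gamma-delta T cells, 33 to 121 and 17 to 146 for Itga1 or Cxcr6, and 31 to 230 and 62 to 290 for maturation. Of 700 alternative values of the 10 genes per direction with the largest log2 fold changes in each of the 4 tests, 639 kept the call, 60 lost it and 1 reversed: Ppp1r3b had a log2 fold change of 0.068 with cells divided at 1000 UMIs for Itga1 or Cxcr6. With the list members that passed added to these genes, 4002 of 4368 values kept the call against CD8 T cells, 704 of 808 against gamma-delta T cells, 242 of 384 for Itga1 or Cxcr6 and 412 of 581 for maturation. The sign changed in 1 value each of Cxcl10, Ero1l, Hmox1 and Slfn5 against CD8 T cells, and of Il7r beside Ppp1r3b for Itga1 or Cxcr6.

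The NK share kept its order of ctrl lowest and 2DG_aPDL1 highest under each setting. With 1 or more UMIs of Ncr1 plus Klrb1c it was 4.58%, 3.56%, 3.43% and 0.363% in 2DG_aPDL1, 2DG, aPDL1 and ctrl, with 3 or more 3.58% in 2DG_aPDL1 and 2.63% in aPDL1, and after thinning 2.96%, 2.06% and 2.23% in 2DG_aPDL1, 2DG and aPDL1.

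Counts past 2-fold moved with the counting floor. At an expected count of 10 or more, 82 genes were higher and 51 lower for 2DG over ctrl, 259 and 193 for 2DG_aPDL1 over aPDL1, 127 and 50 for aPDL1 over ctrl and 295 and 148 for 2DG_aPDL1 over 2DG. At 40 or more they were 5 and 0, 46 and 24, 20 and 0, and 83 and 19 in the same order. With 5 added to counts they were 9 and 21 for 2DG over ctrl, 20 and 17 for aPDL1 over ctrl, and 74 higher for 2DG_aPDL1 over aPDL1. TMM factors gave 45 higher for 2DG over ctrl and 3 lower for aPDL1 over ctrl, and a limit of 1 on Ncr1 plus Klrb1c gave 61 and 68 lower for 2DG and aPDL1 over ctrl. Of 324 alternative values of genes at least 1.5-fold apart in both pairs of a treatment, 308 kept their size, 14 moved and 2 reversed, both of Cd74 with that limit: its log2 ratio was -0.42 for 2DG over ctrl and -0.26 for 2DG_aPDL1 over aPDL1. The causes were not tested. The 21 ctrl cells limit every comparison with ctrl to abundant transcripts.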
